A study of Mus musculus with 33 samples.

Results

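The comparison described here set 3 arrays of whole lung taken 6 h after birth in room air against 3 arrays of whole lung taken at fetal day 21 (F21), also in room air, so that 6 of the 33 arrays of the series were its members. The members were chosen by their sample titles, and signals were compared as log2 of the signal with a floor of 10. The mice were C57B/6J by the study's methods; the sample labels give BL/57 for the 3 arrays at 6 h and C57/Black for 2 of the 3 at F21, name no transgene or deletion, and leave 1 F21 array without a strain. Every array was an Affymetrix MGU74Av2 chip hybridized with RNA of snap-frozen tissue. Newborns were taken 6 h after parturition, and fetuses from dams killed at the end of gestation. Arrays at 2, 12 and 24 h in room air, at F21, 2 h and 6 h in 10% oxygen, and of liver at F21, 2 h and 6 h, with 3 arrays per group, were used to place the 6 h response. In the 10% oxygen groups the dams had been kept in 10% oxygen, for 12 h where F21 lungs were taken. The labels do not say whether the arrays of a group came from separate litters or from pooled pups, so that the p-values measure only the spread between these samples.

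At birth the lung clears its liquid, fills with air and meets a higher oxygen tension, while fetal glucocorticoids and catecholamines are at a peak. Glucocorticoids act through a nuclear receptor that switches on sodium transport, surfactant synthesis and brakes on MAP kinase signalling. Oxidant and metal stress are met by glutathione, whose synthesis is limited by glutamate-cysteine ligase, and by metallothioneins, small cysteine-rich proteins that bind zinc. Whether neutrophils arrive in the lung in the first hours of air breathing was not tested here.

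Technical measures of the 6 h and F21 arrays overlapped. The ratio of the 3′ to the 5′ Gapdh probe set was 0.837 to 1.04 at 6 h and 0.824 to 1.03 at F21, and BioB, a spiked bacterial control averaged over 3 probe sets, had signals of 277 to 494 at 6 h and 221 to 542 at F21. Pearson's r across probe sets was 0.863 to 0.904 between 6 h arrays, 0.874 to 0.885 between F21 arrays and 0.811 to 0.857 between the groups. The third 6 h array had the lowest r with the others of its group, 0.863 to 0.870. In 40 of the 57 probe sets that rose, it was the lowest of the 6 h arrays. The fit took its spread from all 8 lung groups, and the 10% oxygen arrays varied more (a median SD on the log2 scale of 0.419 to 0.480, against 0.288 to 0.363 in room air) and had Gapdh ratios of up to 9.40. Counts are therefore also given from a fit of the room-air groups alone. For the gene lists these were added after the data had been seen.

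Of 6930 probe sets tested in limma, 71 differed between 6 h and F21 at an adjusted p under 0.05, or 1.02%, with 57 higher (0.823%) and 14 lower (0.202%). Of the 71, 64 carry 1 gene symbol each, all different, and 7 have no single symbol. In 1517 probe sets (21.9%) the 6 h and F21 arrays did not overlap, and all 71 were among these. The rises had a median of log2 1.68 and reached 3.91, and 23 of them exceeded log2 2. The falls had a median of log2 -1.69 and reached -2.31. The fit of room-air lungs alone gave 139 of 6119 probe sets (2.27%), 99 higher and 40 lower, with 68 of the 71 among them. Without the first 6 h array 21 probe sets passed, and without each of the other arrays 24 to 45 did. The calls that passed in all 6 fits without 1 array were those of Wdr92, S100a8, S100a9, Dusp1, Ccn2, Sat1, Cd14, Plpp1, Adh1 and Mest and of 3 probe sets without a single symbol, 13 in all, while 20 calls passed in none of them. Whether the probe set annotated to Wdr92 measures the RNA of that gene alone was not tested, since no probe sequences were used here.

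**Figure D1:**
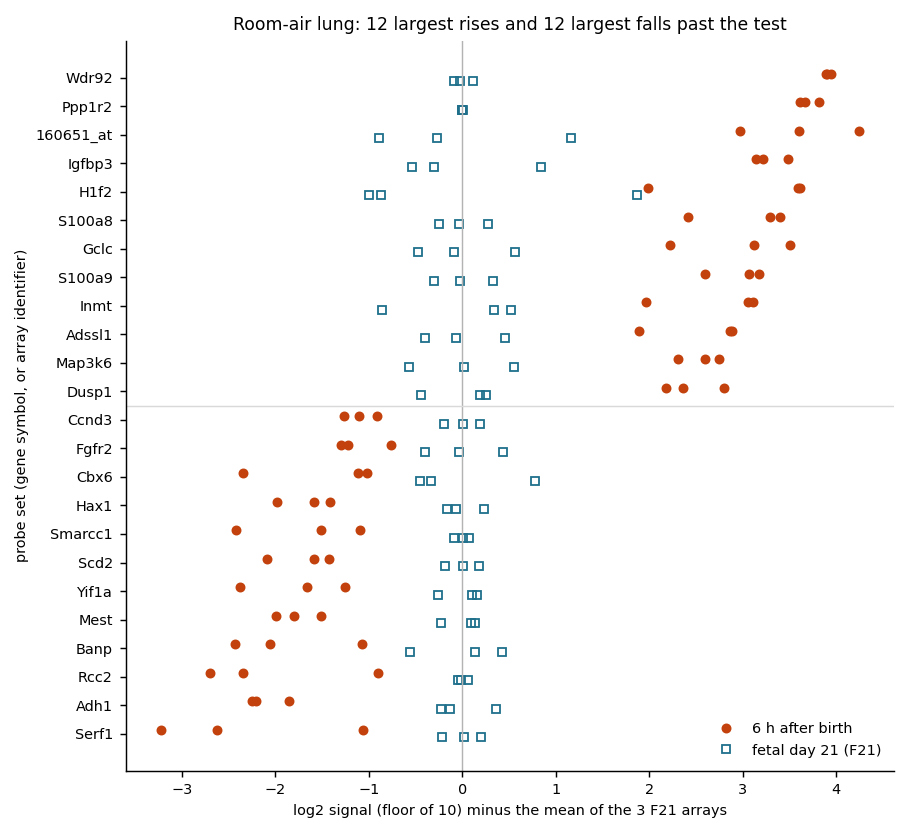
Log2 signals of the 12 probe sets that rose most and the 12 that fell most, with each array given as its difference from the mean of the 3 F21 arrays on the horizontal axis and 1 probe set per row. Filled circles are 6 h arrays and open squares F21 arrays. The groups do not overlap in any row, and in H1f2 and Inmt 1 array of 3 stands well apart from the others of its group.

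The genes of glucocorticoid response made up the list with the most members past the test. Of its 24 tested genes 6 rose and the other 18 did not pass, and the median was log2 1.28, against 44 higher and 13 lower of 5310 genes and a median of log2 -0.05 over all genes with 1 probe set each. In the fit of room-air lungs 8 of the 24 rose, against 72 of 4752 genes. The 6 were Dusp1, Sgk1, Cdkn1a, Anxa1, Mt1 and Mt2, and several of them belong to other lists as well. Dusp1 encodes a phosphatase that switches off MAP kinases. Its signal was 1152, 853 and 752 on the 6 h arrays, against 189, 197 and 122 on the F21 arrays, a rise of log2 2.45 (standard error 0.43, adjusted p = 0.00511). The gap between the lowest 6 h and the highest F21 array was wider than the range within either group.

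Sgk1, a kinase that keeps epithelial sodium channels at the cell surface, had signals of 608, 489.9 and 275 at 6 h, against 92.1, 73.1 and 82.6 at F21. The rise of log2 2.40 (standard error 0.51, adjusted p = 0.0198) passed in 1 of 6 fits without 1 array. The F21 arrays were close together and the third 6 h array was the lowest of its group. Anxa1, annexin A1, an inhibitor of phospholipase and of leukocyte recruitment, had signals of 1831, 1031 and 922 at 6 h, against 194, 262 and 559.9 at F21, at log2 1.98 (standard error 0.41, adjusted p = 0.0169). The groups did not overlap, although the third F21 array was nearer to 6 h than the other 2. The other Anxa1 probe set tested was at log2 1.42 with an adjusted p of 0.0887. Members that did not pass in the fit of all lungs included Angptl4, an inhibitor of lipoprotein lipase, at log2 1.57 (adjusted p = 0.0711), and Errfi1, a feedback inhibitor of the EGF receptor, at log2 1.77 (adjusted p = 0.0745). Other Angptl4 probe sets tested were at log2 0.75 (adjusted p = 0.825) and, in the opposite direction, at -1.08 (adjusted p = 0.689).

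Cdkn1a encodes p21, the inhibitor of cyclin-dependent kinases that halts the cell cycle, and is a gene the study followed. Its signal was 435, 501 and 451 at 6 h, against 93.9, 142 and 85.5 at F21, a difference of log2 2.14 (standard error 0.47, adjusted p = 0.0212). The groups were far apart, but the call passed in 1 of 6 fits without 1 array, and its other probe set was at log2 1.76 with an adjusted p of 0.0725. It was the 1 gene called among 23 p53 targets and growth arrest genes, whose median was log2 0.25.

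Both major metallothioneins rose. Mt2 had signals of 3668, 2510 and 1985 at 6 h, against 456, 587 and 929 at F21, at log2 2.07 (standard error 0.39, adjusted p = 0.00768). Mt1 had 1896, 1367 and 1070.2 at 6 h, against 273, 388 and 414 at F21, at log2 1.99 (standard error 0.39, adjusted p = 0.00935). The first 6 h array was the highest and the third the lowest for both genes, and both passed in 4 of 6 fits without 1 array. The other 5 genes tested for metallothionein and zinc handling did not pass, with Mt3, a metallothionein of brain, at log2 0.27, Mtf1, the zinc sensor that binds metallothionein promoters, at -0.02 and the zinc importer gene Slc39a4 at 0.19.

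The genes Mt1 and Mt2 lie close together on chromosome 8, and their promoters are shown because the 2 moved together and because metal response elements in such promoters are bound by Mtf1. The windows run from 250 bases before to 50 bases after the start that RefSeq annotates in GRCm38.p6, at chr8:94178839-94179138 on the plus strand and chr8:94172368-94172667 on the plus strand, and capitals mark matches to the core letters TGCNCNC on either strand. Mt1 held 3 such matches and Mt2 held 6, where 51% of all 32851 promoter windows held at least 1, 7.1% at least 3 and 0.225% at least 6. Of the 54 called genes with a window 34 held at least 1, and Igfbp3 also held 6. A match of letters is a description and not a bound site.
Mt1: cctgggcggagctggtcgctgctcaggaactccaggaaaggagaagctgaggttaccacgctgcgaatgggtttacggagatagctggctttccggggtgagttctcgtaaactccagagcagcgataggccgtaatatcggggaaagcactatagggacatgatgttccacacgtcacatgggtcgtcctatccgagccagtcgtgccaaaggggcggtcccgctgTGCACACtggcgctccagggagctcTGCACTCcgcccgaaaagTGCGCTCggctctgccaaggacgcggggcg
Mt2: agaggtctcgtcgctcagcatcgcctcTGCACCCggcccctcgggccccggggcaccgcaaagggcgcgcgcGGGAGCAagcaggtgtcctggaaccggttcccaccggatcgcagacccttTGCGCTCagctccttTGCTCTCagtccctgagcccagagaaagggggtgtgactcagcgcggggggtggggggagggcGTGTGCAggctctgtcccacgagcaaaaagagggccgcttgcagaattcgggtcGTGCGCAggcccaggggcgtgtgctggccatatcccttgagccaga

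Gclc, the catalytic subunit of glutamate-cysteine ligase, rose by log2 2.95 (standard error 0.57, adjusted p = 0.00872). Its signal was 1148, 877 and 470.4 at 6 h, against 149, 94.8 and 72.5 at F21, with means of 832 ± 341 at 6 h and 106 ± 39.5 at F21 (SD, n = 3 each). The 6 h arrays spread widely, the first being the highest and the third the lowest, yet the lowest of them was above the highest F21 array. Gclc was the 1 gene called of 40 tested for glutathione, NRF2 targets and antioxidants, a list with a median of log2 0.02. Txnrd1, thioredoxin reductase, was at log2 1.31 (adjusted p = 0.119) and Gsr, glutathione reductase, at 0.73 (adjusted p = 0.204). Sqstm1, which encodes the autophagy adaptor p62, and Mafk, a small Maf protein that pairs with NRF2, were called as well. Sqstm1 had signals of 799, 871 and 831 at 6 h, against 307, 256 and 332 at F21, at log2 1.49 (standard error 0.32, adjusted p = 0.0204), and Mafk differed by log2 1.11 (adjusted p = 0.0266). Neither passed in any of the 6 fits without 1 array. Of 12 genes for iron and heme none passed, with 812 of all probe sets at an unadjusted p under 0.05 in limma, and Hmox1, the heme oxygenase that oxidants induce, was at log2 0.25.

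S100a8 and S100a9, the subunits of calprotectin, a calcium- and zinc-binding complex of neutrophils and monocytes, gave, together with the Wdr92 probe set, the 3 smallest adjusted p-values. S100a8 had signals of 1401, 1509 and 765 at 6 h, against 139.5, 174 and 121 at F21, at log2 3.04 (standard error 0.28, adjusted p = 8.76e-07). S100a9 had 565, 526 and 377 at 6 h, against 78.4, 50.7 and 61.5 at F21, at log2 2.95 (standard error 0.42, adjusted p = 0.000694). Their means were 8.47-fold and 7.7-fold higher at 6 h, and the third 6 h array was the lowest for both. Both calls passed in all 6 fits without 1 array.

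The promoters of S100a8 and S100a9 on chromosome 3 are shown because their transcripts moved together, with the letters TATAAA in capitals. The windows are at chr3:90668821-90669120 on the plus strand and chr3:90695672-90695971 on the minus strand in GRCm38.p6, from RefSeq. Each held 1 match on either strand, where 13.6% of all promoter windows held at least 1.
S100a8: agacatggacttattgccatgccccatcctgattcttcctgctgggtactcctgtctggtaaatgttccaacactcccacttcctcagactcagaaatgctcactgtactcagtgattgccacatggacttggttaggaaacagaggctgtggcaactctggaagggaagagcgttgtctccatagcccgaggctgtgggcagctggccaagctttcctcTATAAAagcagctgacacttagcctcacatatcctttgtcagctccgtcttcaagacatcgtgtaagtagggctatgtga
S100a9: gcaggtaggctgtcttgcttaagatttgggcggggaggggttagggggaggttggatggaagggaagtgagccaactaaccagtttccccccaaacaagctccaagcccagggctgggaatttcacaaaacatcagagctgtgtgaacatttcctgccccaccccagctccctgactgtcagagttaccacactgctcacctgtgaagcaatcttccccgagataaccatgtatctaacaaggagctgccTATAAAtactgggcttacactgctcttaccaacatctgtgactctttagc

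Differences of the other neutrophil genes were smaller. Of 14 neutrophil and innate alarm genes tested, S100a8 and S100a9 rose and 12 did not pass, with a median of log2 0.47. In the fit of room-air lungs Il1r2, the decoy receptor of interleukin 1, passed too. Il1r2 also belongs to the glucocorticoid list. Of the defining granule markers, Mpo, myeloperoxidase, had signals of 24.6, 31 and 15 at 6 h, against 35.3, 28.6 and 30.2 at F21, and Elane, neutrophil elastase, had 136, 138 and 176 at 6 h, against 170.2, 83.4 and 95.7 at F21. Camp, a cathelicidin, had 168, 228 and 165 at 6 h, against 156, 140.2 and 81.3 at F21. In these 3 only Camp had its 6 h arrays all above the F21 arrays, and Ngp, a neutrophil granule protein, had 49.1, 63.9 and 41.5 at 6 h, against 17, 18.6 and 19.7 at F21, also without overlap, at an adjusted p of 0.483. Of the 14 genes tested in the list, 6 had their 6 h arrays all above the F21 arrays and none all below, against 533 and 663 of all 5310 genes tested. The summed signal of the 25 neutrophil probe sets was 3837 to 4607 at 6 h and 2281 to 2673 at F21. S100a8 and S100a9 carried most of this difference, and the other 23 probe sets summed to 2452 to 2694 at 6 h and 2099 to 2448 at F21, a sum chosen after its values were seen. The part of cell number in these results was not tested, and in bulk tissue more cells of a type and more RNA per cell cannot be told apart.

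Cd14, the co-receptor for bacterial lipopolysaccharide on monocytes and macrophages, was the 1 gene called of 15 macrophage and monocyte genes. Its signal was 558, 559.6 and 358 at 6 h, against 198, 169.5 and 161 at F21, at log2 1.46 (standard error 0.25, adjusted p = 0.00442), and it passed in all 6 fits without 1 array. The list had a median of log2 0.69 with 12 of 15 differences above 0. In the fit of room-air lungs Ctss, cathepsin S, passed as well, with signals of 519, 564 and 457 at 6 h, against 261, 193 and 192 at F21. Apoe, an apolipoprotein that macrophages secrete, was at log2 0.99 (adjusted p = 0.2), and Lyz2, a lysozyme of macrophages and type 2 cells, at 1.14 (adjusted p = 0.231). Among the defining markers Cd68 had 125, 147 and 102 at 6 h, against 91.6, 74.6 and 98.7 at F21, and Csf1r had 63.7, 78.7 and 99.1 at 6 h, against 109, 75.8 and 69 at F21. The defining markers Adgre1 and Marco lay near the floor, Adgre1 at 12.1, 4 and 23.7 at 6 h, against 17, 4.5 and 14.7 at F21, and Marco at 34.9, 4.4 and 11.7 at 6 h, against 6.9, 9.3 and 6.3 at F21. Only Cd68 of these 4 had no overlap, as did 21.9% of all probe sets tested. Of the 15 genes of the list that were tested, 9 had their 6 h arrays all above the F21 arrays and none all below, against 533 and 663 of 5310 genes. The 26 macrophage probe sets summed to 6986 to 10616 at 6 h and 3748 to 5492 at F21. Apoe and Lyz2, neither past the test, carried most of this difference. Without them the other 24 summed to 2588 to 3232 at 6 h and 1688 to 1855 at F21, again a sum chosen after its values were seen, and the part of cell number was not tested here either.

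Of the cytokine, chemokine and receptor genes, Il4ra, the shared chain of the receptors for interleukins 4 and 13, was the 1 called of 21. It had signals of 266, 404 and 315 at 6 h, against 43.4, 74.4 and 97.6 at F21, at log2 2.25 (standard error 0.41, adjusted p = 0.00768), and passed in 5 of 6 fits without 1 array. Serpina3n, an acute phase protease inhibitor, had 527, 354 and 354 at 6 h, against 181, 63.9 and 63 at F21, at log2 2.17 (standard error 0.52, adjusted p = 0.0388), and was the 1 called of 10 acute phase and mucosal defence genes. The groups were apart in both genes, although 1 F21 array of Serpina3n was well above the other 2. Stat3, which carries signals of the interleukin 6 family, was at log2 0.96 (adjusted p = 0.0347), against 0.39 (adjusted p = 0.377) at its other probe set. Litaf, induced by lipopolysaccharide in macrophages, was at log2 1.38, and the class I gene H2-D1 at 0.78 at the probe set called. None of 24 interferon response genes passed at its brightest probe set, and their median was log2 0.40.

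Immediate early genes, whose transcription answers a stimulus without new protein, were above 0 in 24 of 32 cases. In this list, which includes MAP kinase feedback genes, Dusp1, Ccn2 and Jund rose and 29 did not pass, with a median of log2 0.72. In the fit of room-air lungs 5 passed. Ccn2, connective tissue growth factor, a target of TGF-beta and stretch, had signals of 556, 533 and 489 at 6 h, against 117, 113 and 204 at F21, at log2 1.92 (standard error 0.33, adjusted p = 0.00442). Jund, a subunit of AP-1, had 6865, 7194 and 6924 at 6 h, against 2965, 2553 and 3296 at F21, at log2 1.26 (standard error 0.29, adjusted p = 0.0329). The 6 h arrays were tight in both genes, and Ccn2 passed in all 6 fits without 1 array while Jund passed in none.

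The Dusp1 promoter is shown because Dusp1 passed in every fit without 1 array and because the cyclic AMP response element TGACGTCA is known to be in it. The window is at chr17:26508423-26508722 on the minus strand in GRCm38.p6, from RefSeq, and capitals mark the 1 match, which begins at base 108 of 300. Of all promoter windows 1.79% held this motif.
Dusp1: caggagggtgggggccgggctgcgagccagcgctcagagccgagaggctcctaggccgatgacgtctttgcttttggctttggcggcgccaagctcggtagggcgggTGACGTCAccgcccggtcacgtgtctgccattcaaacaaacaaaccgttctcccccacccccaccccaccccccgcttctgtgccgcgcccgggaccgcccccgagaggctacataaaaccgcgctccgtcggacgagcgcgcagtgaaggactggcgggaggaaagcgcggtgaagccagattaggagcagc

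Klf4, a factor of cell differentiation that the study followed, had signals of 370.5, 321 and 231 at 6 h, against 77, 97 and 90.2 at F21. The groups did not overlap, and the difference was log2 1.78 (standard error 0.47, adjusted p = 0.0694), short of the threshold in the fit of all lungs and past it in the fit of room-air lungs (adjusted p = 0.0152). All 10 Kruppel-like factors tested lay above 0, with a median of log2 0.80, and none passed in the fit of all lungs. Klf6, a factor induced by injury, was at log2 1.68 (adjusted p = 0.0725), and Klf2, which shear stress induces in endothelium, at 2.97 (adjusted p = 0.176) with signals of 196, 166 and 45.2 at 6 h, against 16, 13 and 14.7 at F21. Of the other genes the study named, Tnc, tenascin C, was at log2 0.81, Fn1, fibronectin, at 0.21 and Col1a1, a chain of type 1 collagen, at 0.14. None of these 3 passed, and of the 3 only Col1a1 had 6 h and F21 arrays that overlapped. Over all 6930 probe sets tested, 21.9% had no overlap. Acta2, smooth muscle actin, had signals of 436, 368 and 298 at 6 h, against 288, 263 and 568 at F21, at log2 0.05 (adjusted p = 0.984), with overlap. Klf5, Itgb1, the beta chain of the fibronectin receptor, and Pcna, the sliding clamp of DNA replication, were at log2 0.14, 0.21 and 0.13, none past the test. Of the 12 genes named by the study and tested here, all lay above 0 at their brightest probe set and Cdkn1a was the 1 that passed. Over all 5310 genes tested, 2433 lay above 0. The other Col1a1 probe set was below 0, at log2 -0.39 (adjusted p = 0.651).

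**Figure D2:**
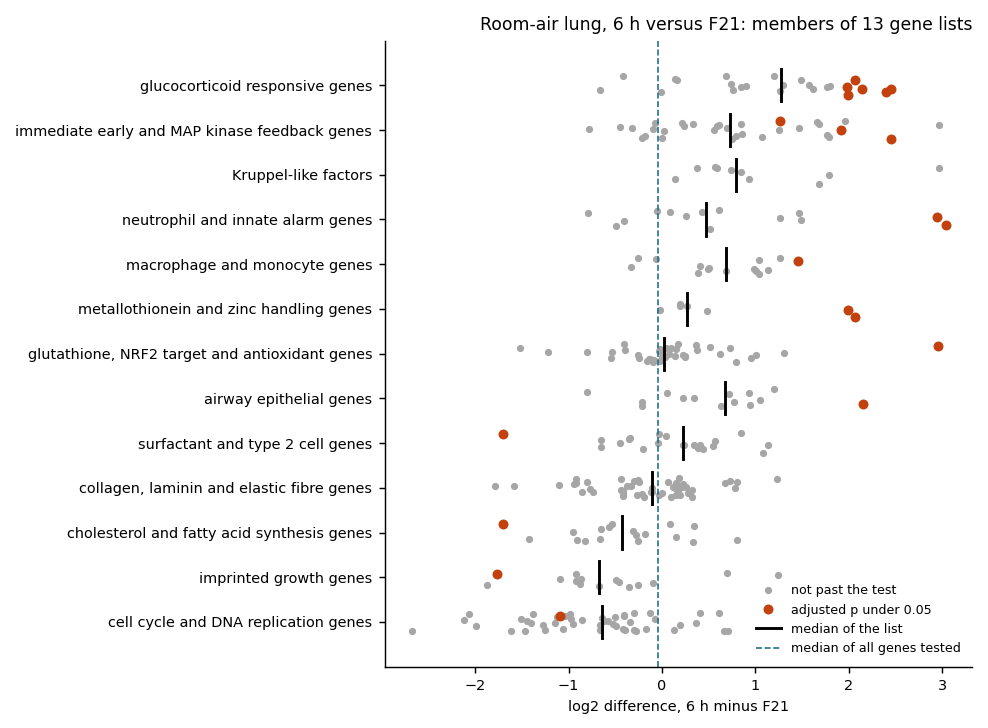
The log2 difference between 6 h and F21 of each tested member of 13 gene lists, 1 point per gene, with 1 list per row. Orange points passed at an adjusted p under 0.05, black bars are list medians and the dashed line is the median of all genes tested, log2 -0.05. The glucocorticoid list has the highest median, log2 1.28, and the imprinted and cell cycle lists the lowest, -0.67 and -0.64.

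Cell cycle genes lay mostly below F21. Of 47 genes tested, 40 had a difference below 0 and the median was log2 -0.64, but only Ccnd3 passed in the fit of all lungs. In the fit of room-air lungs 31 genes of the list were tested and 3 fell, against 36 of 4752 genes. In 21 of the 47 the 6 h arrays all lay below the F21 arrays and in none all above, against 663 and 533 of 5310 genes. Ccnd3, a D-type cyclin of the G1 phase, had signals of 189.5, 242 and 211 at 6 h, against 396, 519 and 455 at F21, at log2 -1.09 (standard error 0.25, adjusted p = 0.0285), and passed in none of the fits without 1 array. Ccnb2, a mitotic cyclin, had 192, 229.9 and 250 at 6 h, against 405, 389.9 and 543 at F21, at log2 -0.99 (adjusted p = 0.0716). Cdk1, the kinase of mitotic entry, was at log2 -1.26 (adjusted p = 0.0716) and Cks2, its small partner, at -2.68 (adjusted p = 0.0641). The summed signal of the 65 probe sets of the list was 5465 to 6309 at 6 h and 8236 to 10851 at F21. After quantile normalization the list median was log2 -0.56.

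Adh1 and Mest were the falls that passed in all 6 fits without 1 array. Adh1, an alcohol dehydrogenase that also oxidizes retinol, had signals of 656, 499 and 517 at 6 h, against 2167, 2039 and 3045 at F21, at log2 -2.10 (standard error 0.39, adjusted p = 0.00768). Mest, a maternally imprinted gene of mesoderm that is high in growing fetal tissue, had 79.6, 97.6 and 69.5 at 6 h, against 237, 304 and 296 at F21, at log2 -1.77 (standard error 0.34, adjusted p = 0.00872). In both genes the highest 6 h array was far below the lowest F21 array. Of 15 imprinted growth genes Mest fell and 14 did not pass, with a median of log2 -0.67. Nnat, neuronatin, was at log2 -1.87 (adjusted p = 0.0916) and Igf2r, the receptor that clears IGF2, at -0.92 (adjusted p = 0.167), while Peg3, a zinc finger gene, was at 1.25 (adjusted p = 0.0508).

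Scd2, a stearoyl-CoA desaturase that makes unsaturated fatty acids in the perinatal lung, had signals of 875, 783 and 551 at 6 h, against 2067, 2356 and 2665 at F21, at log2 -1.70 (standard error 0.34, adjusted p = 0.0112). Its other probe set was at log2 -0.92 (adjusted p = 0.0716). Scd2 was the 1 gene called of 18 for cholesterol and fatty acid synthesis, where the median was log2 -0.42, and the 1 called of 21 surfactant and type 2 cell genes, where it was 0.23. Fdft1, squalene synthase, was at log2 -1.42 and Fasn, fatty acid synthase, at -0.66, neither past the test. The surfactant gene Sftpc had 51117, 54585 and 60597 at 6 h, against 54367, 44418 and 43575 at F21, at log2 0.23 (adjusted p = 0.835). Its 2 groups overlapped.

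The remaining falls were of genes with varied functions. Serf1, of a family that promotes protein aggregation, had 7.3, 44.8 and 15.2 at 6 h, against 80.6, 94.7 and 108 at F21, with 1 array under the floor of 10, at log2 -2.31 (standard error 0.52, adjusted p = 0.0246), and at log2 -1.39 with a floor of 32, short of the threshold. Rcc2, a chromosome passenger protein, had 31.2, 109 and 39.8 at 6 h, against 201, 196 and 211 at F21, at log2 -1.98 (standard error 0.47, adjusted p = 0.0371). The 3 F21 arrays lay close together in both and the second 6 h array stood above the other 2. At its other probe set Rcc2 was at log2 -1.83 (adjusted p = 0.186). Banp, a nuclear matrix protein that binds DNA, had 89.6, 34.9 and 45.3 at 6 h, against 128, 207 and 252 at F21, at log2 -1.85. Yif1a, of transport from the endoplasmic reticulum to the Golgi, had 80.7, 60.8 and 37.1 at 6 h, against 161, 207 and 214 at F21, at log2 -1.76. The first 6 h array was the nearest to F21 in both. Smarcc1, a core subunit of the SWI/SNF remodeller, had 25.5, 34 and 13.5 at 6 h, against 68.3, 76.3 and 73.1 at F21, at log2 -1.68. Hax1, a mitochondrial inhibitor of apoptosis, had 28.4, 37.2 and 41.9 at 6 h, against 131, 107 and 100.4 at F21, at log2 -1.66. Cbx6, of the Polycomb group, had 110.5, 44 and 103 at 6 h, against 177, 164 and 384 at F21, at log2 -1.49. None of these 3 showed overlap, and in Cbx6 the third F21 array was well above the other 2. At its other probe set Cbx6 was at log2 -1.01 (adjusted p = 0.51). Fgfr2, the receptor of FGF7 and FGF10 in lung epithelium, had 292, 277 and 399.6 at 6 h, against 662, 517 and 919 at F21, at log2 -1.09 (standard error 0.27, adjusted p = 0.0487), and -0.83 (adjusted p = 0.231) at its brighter probe set. Gtf3c1, a subunit of the RNA polymerase III factor TFIIIC, and Trim28, a co-repressor of transcription, were at log2 -1.02 and -0.68.

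The probe set annotated to Wdr92, which encodes a WD repeat protein of cilia assembly, showed the largest rise. This probe set, 99849_at on chromosome 11, had signals of 31577, 31780.4 and 32756 at 6 h, against 2002, 2092 and 2296 at F21, at log2 3.91 (standard error 0.49, adjusted p = 0.000125), a 15-fold ratio of the means. The arrays of each group were tight, and the call passed in every fit without 1 array and in all 14 other settings, the adjusted two-sample test among them. Ppp1r2, an inhibitor of protein phosphatase 1, was the second largest at log2 3.70 (standard error 0.90, adjusted p = 0.0404), with signals of 127, 141 and 123 at 6 h, against 10.1, 6.1 and 9.8 at F21. Since 2 of its F21 arrays lay under the floor, its size depends on that floor. With a floor of 32 it was at log2 2.02, short of the threshold, and its other probe set was at log2 1.27 (adjusted p = 0.513).

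Igfbp3, a carrier of IGFs that also acts on cell growth, had signals of 291, 230.1 and 243 at 6 h, against 46.6, 21.2 and 17.9 at F21, at log2 3.28 (standard error 0.72, adjusted p = 0.0212). Its brighter probe set was at log2 2.47 and did not pass (adjusted p = 0.146). H1f2, a linker histone, had 639, 629 and 207 at 6 h, against 26.1, 28.6 and 190.4 at F21, at log2 3.06 (standard error 0.68, adjusted p = 0.0212). The third 6 h array and the third F21 array of H1f2 nearly met. Inmt, an N-methyltransferase of indoles that is abundant in lung, had 1599, 1655 and 748 at 6 h, against 242, 276 and 106 at F21, at log2 2.71 (standard error 0.60, adjusted p = 0.0212). It passed in 2 of 6 fits without 1 array and was the 1 called of 15 xenobiotic and methyl transfer enzymes.

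Adssl1, an adenylosuccinate synthase, had signals of 96.1, 97.6 and 49 at 6 h, against 12.6, 18.1 and 6.7 at F21, at log2 2.55 (standard error 0.49, adjusted p = 0.00872). Map3k6, a kinase of stress signalling, had 318, 259.9 and 352 at 6 h, against 53.1, 77.2 and 35.4 at F21, at log2 2.55 (standard error 0.60, adjusted p = 0.0329). Both were dim at F21, and 1 F21 array of Adssl1 was under the floor. With a floor of 32 Adssl1 was at log2 1.27, short of the threshold. The other 6 unnamed probe sets rose by log2 1.43 to 2.45. The probe set 160651_at, which carries no gene symbol in the annotation, had 562, 358 and 231 at 6 h, against 15.9, 24.5 and 66.3 at F21, at log2 3.61 (standard error 0.55, adjusted p = 0.00134), with a wide spread in both groups and no overlap.

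Scgb1a1, the secretoglobin of airway club cells, rose among the brightest transcripts of the lung. It had signals of 7444, 9125 and 7687 at 6 h, against 2731, 2744 and 798 at F21, at log2 2.15 (standard error 0.52, adjusted p = 0.0378). The third F21 array lay far below the other 2, and the call passed in none of the 6 fits without 1 array and in the fit of room-air lungs. Of 14 airway epithelial genes it was the 1 called, and the median was log2 0.68. Krt18 and Krt8, the keratins of simple epithelia, were at log2 0.93 (adjusted p = 0.101) and 0.77 (adjusted p = 0.203). None of 15 alveolar type 1 genes passed, with a median of log2 -0.14 and Ager at -0.03.

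Several called genes belong to lists in which they stood alone. Sat1, the enzyme that breaks down spermidine and spermine, had signals of 486, 691 and 558 at 6 h, against 177, 192 and 174 at F21, at log2 1.66 (standard error 0.29, adjusted p = 0.00442), and passed in all 6 fits without 1 array. Atf4, the effector of the integrated stress response, had 919.8, 775 and 764 at 6 h, against 293, 428 and 338 at F21, at log2 1.23 (standard error 0.23, adjusted p = 0.00768). The groups were well apart in both, and Slc3a2, an amino acid transporter chain that Atf4 is known to induce, was at log2 1.10 (adjusted p = 0.0217). Among the 30 chaperone genes Atf4 alone passed in the fit of all lungs, and in the fit of room-air lungs it rose and 3 genes fell, with Hsp90b1, the chaperone of the endoplasmic reticulum, at log2 -0.69. Cirbp, an RNA-binding protein induced by cold, had 598, 474 and 509 at 6 h, against 204, 150.1 and 183 at F21, at log2 1.56 (standard error 0.39, adjusted p = 0.0487). Ramp1, a partner of the receptor for the vasodilator CGRP, had 395, 366 and 362 at 6 h, against 204, 196 and 137 at F21, at log2 1.08 (standard error 0.22, adjusted p = 0.0141). Ezr, ezrin, which ties actin to the membrane, had 475, 429 and 421 at 6 h, against 165, 185 and 219.5 at F21, at log2 1.23 (standard error 0.29, adjusted p = 0.0369). Igf1r, the receptor of IGF1, had 404, 293 and 270.5 at 6 h, against 173, 169 and 150.3 at F21, at log2 0.96 (standard error 0.23, adjusted p = 0.044). Cirbp, Ezr and Igf1r passed in none of the fits without 1 array and Ramp1 in 3 of 6.

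The other named rises lay between log2 0.85 and 2.42. They included Slc25a25, a mitochondrial carrier of ATP-Mg and phosphate, at log2 2.42, Foxp1, a forkhead factor of lung epithelium, at 2.39, and Ehd1, of endosome recycling, at 2.16. Foxp1 was at log2 1.19 (adjusted p = 0.0962) at its brighter probe set. Plpp1, a lipid phosphate phosphatase, was at log2 1.40 and passed in all 6 fits without 1 array. Others were the tumor suppressor Rassf1 at log2 1.89, the nuclear envelope proteins Tmem43 and Lmna at 1.63 and 1.43, the phosphatidate phosphatase Lpin2 at 1.45, the signal peptide peptidase H13 at 1.45, the chloride channel protein Clic4 at 1.36 and the membrane protein Emp1 at 1.31. The other probe set of Lmna was at log2 0.26 and the brightest of Clic4 at -0.20, neither past the test, while a further probe set of Clic4 was at 1.27 (adjusted p = 0.0716), near the one called. The list was completed by Retreg1, a receptor for autophagy of the endoplasmic reticulum, at log2 1.32, the phosphoinositide phosphatase Inpp5k at 1.28, the histone H3c14 at 1.26, the lymphatic hyaluronan receptor Lyve1 at 1.22 and Cystm1 at 0.85.

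No member passed in several lists that bear on lung structure and metabolism. These were the 50 genes tested for collagen, laminin and elastic fibres (median log2 -0.11), the 21 of smooth muscle (0.08), the 27 of endothelium (0.09), the 48 of oxidative phosphorylation (-0.13), the 25 of cytosolic ribosomal proteins (-0.24), the 28 of hypoxia and glycolysis (0.06) and the 26 of apoptosis (-0.08). In the fit of room-air lungs 1 member rose in each of the endothelial, oxidative phosphorylation and hypoxia lists. Ribosomal protein genes were below 0 in 23 of 25 cases, with 6 whose 6 h arrays all lay below the F21 arrays. Over all 5310 genes tested, 2877 were below 0 and 663 had their 6 h arrays all below the F21 arrays. At an unadjusted p under 0.05 the fit of all lungs held 389 higher and 423 lower probe sets.

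Lung markers were high in both groups. Sftpb had signals of 6866, 5846 and 5648 at 6 h, against 4959, 5330.5 and 3441 at F21, and Cdh5, the cadherin of endothelium, had 521, 438 and 389 at 6 h, against 377, 462 and 394 at F21. No marker of liver, blood, muscle, gut, skin or nerve passed in these lists, and the summed signal was 714 to 825 at 6 h and 608 to 857 at F21 for 21 liver probe sets, and 37243 to 43151 at 6 h and 39315 to 44249 at F21 for 17 erythroid probe sets. For 34 probe sets of heart and skeletal muscle it was 2342 to 3850 at 6 h and 1990 to 2332 at F21, with Myl7, an atrial myosin light chain, at 365, 573 and 150.1 at 6 h, against 196, 186 and 277 at F21. The second 6 h array was the highest for Myl7, and a part of cardiac tissue in the results was not tested.

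The 6 h lungs were next compared with lungs at 2 h, to see which changes had grown between these times. Between 6 h and 2 h 240 of 6930 probe sets passed in limma (3.46%), 158 higher and 82 lower, and between 2 h and F21 294 did (4.24%). The 2 h arrays had a lower BioB signal, 150 to 187, than the 6 h arrays, 277 to 494, and the part of array processing was not tested. Of the 57 rises at 6 h, 12 were past the test against 2 h and all 12 were higher at 6 h, and of the 14 falls 5 were lower at 6 h. Both comparisons use the same 6 h arrays, so that these counts describe the 71 probe sets and are no independent evidence.

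S100a8, Gclc and Cd14 were among the genes higher at 6 h than at 2 h. S100a8 had 1401, 1509 and 765 at 6 h, against 350, 539.7 and 475 at 2 h (log2 1.39, adjusted p = 0.00752). Gclc had 1148, 877 and 470.4 at 6 h, against 157, 103 and 309 at 2 h (log2 2.19, adjusted p = 0.0325). The 2 groups did not overlap in either gene. Cd14 differed from 2 h by log2 1.13 (adjusted p = 0.0129), Sqstm1 by 1.57 (adjusted p = 0.00751), Atf4 by 0.88 (adjusted p = 0.0343) and Tmem43 by 1.82 (adjusted p = 0.00794). Sqstm1 and Tmem43 were at log2 -0.08 and -0.20 at 2 h against F21. Mt1 and Mt2 were higher than at 2 h by log2 1.06 and 1.21, short of the threshold (adjusted p = 0.137 and 0.0873).

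Dusp1, Sgk1 and Klf4 had already risen at 2 h, by log2 3.13, 2.87 and 2.47 against F21 (adjusted p = 0.000183, 0.00264 and 0.00403). Dusp1 had 1152, 853 and 752 at 6 h, against 1251, 2431 and 997 at 2 h, at log2 -0.68 (adjusted p = 0.464). Sgk1 was at log2 -0.47 (adjusted p = 0.717) and Klf4 at -0.69 (adjusted p = 0.506) against 2 h. None of these 3 differences passed. The median of the 32 immediate early genes was log2 0.72 at 6 h and 0.81 at 2 h, each against the same F21 arrays. Of these genes 10 had passed at 2 h and 3 passed at 6 h, all of them higher than at F21. Over all 5310 genes 75 were higher and 149 lower past the test at 2 h, and 44 were higher and 13 lower at 6 h. Compared directly, the median difference of the 32 immediate early genes between 6 h and 2 h was log2 -0.47, against -0.04 over all 5310 genes. Of the 32, 1 was lower at 6 h than at 2 h past the test and none was higher, against 54 and 120 of the 5310.

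Among the falls, Mest had signals of 79.6, 97.6 and 69.5 at 6 h, against 501, 285 and 328 at 2 h, at log2 -2.15 (adjusted p = 0.000702). Scd2 had 875, 783 and 551 at 6 h, against 2896, 2413 and 1276 at 2 h, at log2 -1.52 (adjusted p = 0.013). At 2 h neither differed from F21 past the test, at log2 0.38 for Mest and -0.18 for Scd2, and the third 2 h array of Scd2 was the lowest. Adh1 had fallen by 2 h already, at log2 -1.96 (adjusted p = 0.00532), and differed from 2 h by -0.14.

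**Figure D3:**
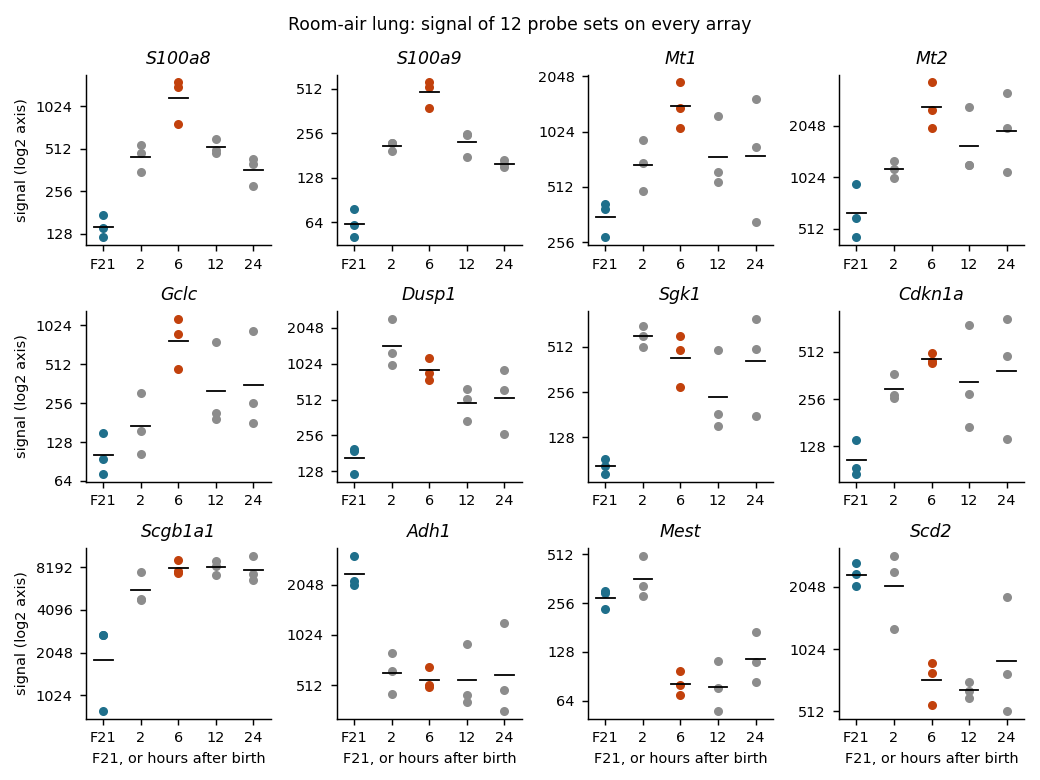
Signal of 12 probe sets on each room-air lung array at F21 and at 2, 6, 12 and 24 h after birth, on a log2 axis, with bars at the mean of the log2 values. Blue points are F21, orange points 6 h and grey points the other times. S100a8, S100a9 and Gclc are highest at 6 h, Dusp1 at 2 h, and Mest and Scd2 are lower at 6 h than at 2 h.

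Few probe sets differed between 6 h and the later times. Against 6 h, 5 of 6930 probe sets passed at 12 h (0.0722%) and 1 at 24 h (0.0144%), with 523 and 381 at an unadjusted p under 0.05 in limma. None of the 71 was among the 5 at 12 h, where 25 of them had an unadjusted p under 0.05. Of the 57 rises, 47 were lower at 12 h than at 6 h, with a median of log2 -0.47, and of the 14 falls 11 were higher, with a median of 0.96. A direction back towards the F21 level follows in part from choosing the 71 on the 6 h arrays. S100a8 was the 1 probe set past the test at 24 h, with 398, 280 and 431 at 24 h, against 1401, 1509 and 765 at 6 h (log2 -1.69, adjusted p = 0.0263). For the Wdr92 probe set the later arrays disagreed, with 29493, 6936 and 12893 at 12 h and 23390.4, 4218 and 18105 at 24 h, and for Gclc with 767, 194 and 216 at 12 h and 936, 181 and 258 at 24 h. The first array of each time was the highest in both genes.

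The response in room air was set against that of newborns in 10% oxygen, to see whether the response differed with the oxygen breathed. In 10% oxygen 437 of 6930 probe sets differed between 6 h and F21 (6.31%), at a spread pooled with the less variable room-air arrays. Of the 57 rises in room air 23 passed there too and were higher, of the 14 falls 3 passed and were lower, and 67 of the 71 had the same sign. The difference between the 2 responses passed for 1 probe set of 6930 (0.0144%), that of Odc1, with 595 at an unadjusted p under 0.05. None of the 71 passed, and 23 of them had an unadjusted p under 0.05, 22 with the larger change in room air, where their selection had been made.

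Mt1, Mt2 and Gclc had some of the larger differences between the settings, none past the test. In 10% oxygen Mt2 had 732, 1294 and 1303 at 6 h, against 762, 2053 and 1256 at F21, and Mt1 had 584, 704 and 779.6 at 6 h, against 590.2, 1019 and 833 at F21. Gclc had 95.4, 173 and 172 at 6 h, against 86.4, 144 and 81 at F21. The groups overlapped in all 3, and F21 lungs of 10% oxygen had higher Mt1 signals than F21 lungs of room air. The room-air response exceeded that in 10% oxygen by log2 2.21 (standard error 0.55) for Mt1, 2.29 (0.55) for Mt2 and 2.45 (0.80) for Gclc. The adjusted p-values were 0.203, 0.203 and 0.345.

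S100a8 rose in both settings, by log2 1.81 in 10% oxygen (adjusted p = 0.000485), and Dusp1, Sgk1 and Cdkn1a were at 2.05, 2.23 and 2.08 there, all past the test. Scgb1a1 rose by log2 3.47 (adjusted p = 0.000302). Klf4 rose by log2 1.65 in 10% oxygen (adjusted p = 0.0367), where in room air it was at 1.78 (adjusted p = 0.0694). The responses differed by log2 0.14 with a standard error of 0.67, which did not pass (adjusted p = 0.978).

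**Figure D4:**
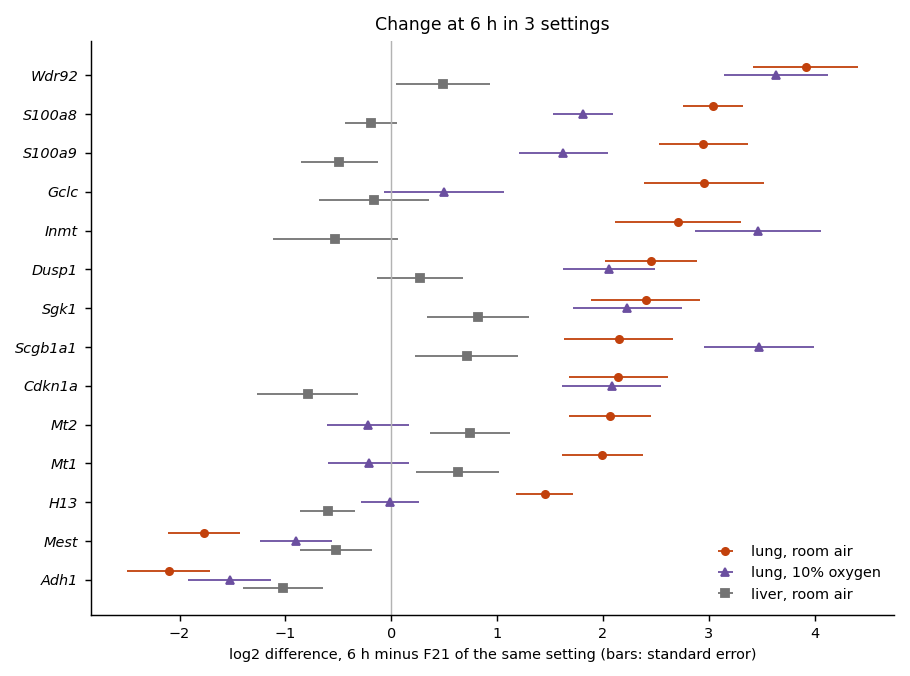
The log2 difference between 6 h and F21 for 14 genes in lungs of room air (orange circles), lungs of 10% oxygen (purple triangles) and livers of room air (grey squares), with standard errors from limma. Mt1, Mt2, Gclc and H13 lie near 0 in 10% oxygen, where S100a8, Dusp1, Sgk1 and Cdkn1a lie above 0, and S100a8 and S100a9 lie slightly below 0 in liver.

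Livers at F21 and 6 h were compared next. The 6 h response differed between lung and liver for 15 of 7636 probe sets (0.196%), 11 with the higher response in lung. Of the 71, 6 were among them, a count that again rests on the lung arrays by which the 71 were chosen. These were Wdr92, S100a8, S100a9, H13 and the probe sets 160651_at and 96912_s_at. In liver S100a8 had 7186, 6864 and 7291 at 6 h, against 8448, 8218 and 7773 at F21, so that its level there was above that of lung at both ages. The difference between the organs was log2 3.23 for S100a8 (adjusted p = 1.47e-06), 3.44 for S100a9 (adjusted p = 0.000716), 3.43 for the Wdr92 probe set (adjusted p = 0.00747) and 2.05 for H13 (adjusted p = 0.0065). Livers showed log2 0.48 at the Wdr92 probe set and -0.60 for H13. Mt1 and Mt2 were at log2 0.63 and 0.74 in liver, and their difference from lung did not pass (adjusted p = 0.445 and 0.438).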

How the data were processed

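RNA of mouse lung and liver was measured on Affymetrix MGU74Av2 arrays. The authors' deposited values are signal intensities on a linear scale, made in MAS5 with every chip scaled to 1 target intensity, as the trimmed means of 100.0 to 100.1 on all arrays show. Depth does not apply, and the number of arrays limits the precision. The 66 control probe sets were left out of 12488. Values below 10 were raised to 10 before log2. Testing was limited to probe sets in the top 40% of an array on at least 3 lung arrays, which replaced the study's filter on detection p-values. Ties were ranked by their average, which was chosen among several conventions to match an earlier count and left 71 calls in each convention fitted. Groups were compared in limma 3.58.1 (R 4.3.3) over all 24 lung arrays, or all lung and liver arrays, with a variance trend, moderated variances and Benjamini-Hochberg adjustment. Responses were compared as interactions. The script was tested on simulated data. Of the probe sets, 10833 carry 1 gene symbol in the array annotation, 396 several and 1193 none. The members of the comparison, the 49 gene lists and the rules were chosen with earlier results of these data known. For a list, a gene was taken at its brightest probe set over lung arrays. Named genes were all probe sets past the test, with values on every array for the 12 largest rises and falls and for called list members, the genes the study named, and up to 6 members of each list by p. Hmox1, Ager, Fasn, Cdh5, Myl7 and defining markers were named for their role. Alternatives were other floors, a pseudocount of 16, quantile normalization, other filters and fits, array weights, the Gapdh ratio as covariate, the two-sample test of the study's methods, and leaving out each array. Promoters came from RefSeq (GRCm38.p6), and 54 of 64 called genes had one.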

Additional observations from a re-analysis of the deposited data

Results flagged for a closer look

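The 6 h response differed between oxygen levels or between organs for the following probe sets, each by a test of the difference itself in limma. Odc1, the rate-limiting enzyme of polyamine synthesis, had signals of 99.4, 98.9 and 92.6 at 6 h, against 73.3, 54 and 52.4 at F21 in room air, and 7.9, 26.7 and 12.3 at 6 h, against 77, 95.3 and 84.2 at F21 in 10% oxygen. Odc1 was at log2 0.71 in room air, not past the test (adjusted p = 0.524), and at -2.52 in 10% oxygen (adjusted p = 0.000506). The 6 h signal of 7.9 in 10% oxygen lay under the floor of 10. The response in room air exceeded that in 10% oxygen by log2 3.23 (adjusted p = 0.0453), a call that quantile normalization and the Gapdh covariate kept and the other settings lost, apart from the fits without the second 6 h or the first F21 array of 10% oxygen.

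The change from F21 to 6 h was higher in lung than in liver for S100a9 (by log2 3.44), S100a8 (3.23) and the Wdr92 probe set (3.43). The same held for the unnamed probe sets 160651_at (3.45) and 96912_s_at (1.72), the pioneer factor Foxa2 (2.72) and the lipogenic factor Srebf1 (2.13). It also held for the signal peptide peptidase H13 (2.05), the choline kinase Chka (1.90), the tubulin Tubb2a (1.58) and the annexin Anxa2 (1.42). The change was lower in lung than in liver for Wnt4 (log2 -3.42), the tight junction protein Cldn5 (-2.14), the mitotic cyclin Ccnb2 (-1.76) and the histone H2ax (-1.37). Of these 15, 6 were among the 71 probe sets called in lung.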

How the results depend on the processing

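The count at 6 h against F21 was 71 in limma over all lungs, and it was 46 without a filter, 318 with array weights, 183 with the 6 arrays compared alone and 139 with room-air lungs alone. It was 2 in the two-sample test of the study's methods after adjustment, and 302 on log2 and 319 on linear signals at its unadjusted p under 0.01. Without 1 array it was 21 to 45. Against 2 h, 240 became 1361 with array weights, 447 with the 6 arrays alone, 470 with room-air lungs alone, 40 in the adjusted two-sample test, 493 on log2 and 497 on linear signals without adjustment, and 63 (without the first 2 h array) to 173 without 1 array. The single call for room air against 10% oxygen became 0 with a floor of 1 or 32, a pseudocount of 16, no filter, the top 30% filter, array weights or the groups compared alone, and 0 to 5 without 1 array (5 without the first F21 array of 10% oxygen). In the comparison with liver, 15 became 41 with a floor of 32, 27 with a pseudocount of 16, 25 with the top 30% filter, 52 with array weights, 24 with the Gapdh ratio and 56 with the groups compared alone, and 7 (without the second 6 h lung array) to 22 (without the first 6 h liver array) without 1 array. The cause was not tested, except that a left-out array leaves fewer samples and a stricter filter fewer probe sets. None of the 71 differences changed sign in any of these settings. Sftpc, the brightest probe set, was at exactly 0 with room-air lungs and quantile normalization, where it tied on every array.

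Sample numbers did not pair the 6 h and F21 arrays of room-air lung. Deviations from the group means of same-numbered arrays correlated at r = -0.062, -0.004 and -0.135. Pairing by sample number with the 2 h arrays or in the other groups was not examined in this way. A replicate block on the arrays compared gave 107 calls against F21, 631 against 2 h, 0 for oxygen and 54 against liver. Added after the data were seen, a replicate block over all lungs gave 70 calls against F21, 204 against 2 h and 0 for oxygen, and room-air lungs with quantile normalization gave 151 and 470. For these counts of 0, 595 probe sets were at an unadjusted p under 0.05 in the limma fit of all lungs.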
